A study of Homo sapiens with 30 samples.

Results

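TIP60, encoded by KAT5, was depleted in HCT116, a human colorectal cancer cell line, and the changes common to a pair of siRNAs were described across the genome. The comparison used 9 of the 30 RNA-seq libraries of the series: 3 transfected with siTIP60-2, 3 with siTIP60-11 and 3 with a control siRNA, siControl. By the labels these libraries shared the line and the handling and differed in the siRNA, which was given at 10 nM for 48 h. The other libraries, HCT116 cells with BRD8 siRNAs and SW480 cells, a second colorectal cancer line, with the same set of siRNAs, were used for 2 direct comparisons. Whether the 3 libraries of a group were grown apart is not in the labels. The HCT116 libraries with BRD8 siRNAs also entered the HCT116 fit, so its p-values rest on the spread within all HCT116 groups. That spread could be technical only.

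TIP60 is a lysine acetyltransferase that marks histones and other proteins, and it is the catalytic subunit of a large chromatin complex that also holds the helicase-like protein EP400, the scaffold TRRAP and the bromodomain protein BRD8. The complex is known as a coactivator of transcription factors, among them MYC and E2F proteins, and as a participant in the response to DNA double-strand breaks. Colorectal epithelium and the lines derived from it express simple keratins and cell junction proteins and divide under WNT, MYC and ERK signalling.

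The libraries held 13.42 to 17.77 M counts (median 16.64). The chi-square per gene between replicates lay between 2.43 and 21.3, so no library was a copy of another. Control replicate 2 stood apart, with 9.808% of its counts on ribosomal protein genes, where the other controls had 7.436% and 7.125%. Results that turn on it are given without it. Counts of 1 to 3 list members shift with single libraries, and no direction is read from them. Levels are CPM, counts scaled to the size of the library, with TMM factors. Changes are the log2 fold change of TIP60 siRNAs over control, averaged over the 2 siRNAs, ± SE, with 3 libraries per group. A gene was called, and is written as risen or fallen, where both siRNAs moved it in the same direction and the larger of the 2 edgeR p-values, adjusted over all genes tested by the Benjamini-Hochberg method, was under 0.05. The adjusted p given with a gene is that value. In every gene given below by its 9 libraries, all 6 depleted libraries lay on one side of all 3 controls.

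KAT5 itself (ENSG00000172977, chromosome 11, 65711996 to 65719604 on the plus strand of GRCh38, protein-coding) had 3.53, 3.56 and 3.61 CPM in the siTIP60-2 libraries and 4.99, 4.72 and 4.702 CPM in the siTIP60-11 libraries, against 48.2, 46.8 and 50.4 CPM with siControl. All 6 depleted libraries lay far below all 3 controls. The means were 7.36% of control with siTIP60-2 and 9.91% with siTIP60-11, a mean change of −3.55 ± 0.0597 (adjusted p = 6.30e-16). The depletion was deeper with siTIP60-2, by a log2 difference of −0.43 between the siRNAs (adjusted p = 0.00788).

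Of 15919 genes tested, 4437 (27.9%) were called, 2186 higher (13.7%) and 2251 lower (14.1%). At least a 2-fold change with both siRNAs was seen in 435 genes (2.73%), 244 higher (1.53%) and 191 lower (1.2%). The 6 TIP60 libraries lay beyond all 3 controls for 4278 of the called genes, or 96.4%, and for 33.5% of all genes tested. Most changes were small: the median size among called genes was 0.565 on the log2 scale, and in 2610 of them (58.8%) the weaker siRNA moved the gene by less than 0.5. Taken alone, siTIP60-2 was past the threshold for 7920 genes (49.8%; 24.3% higher, 25.4% lower) and siTIP60-11 for 8531 (53.6%; 25.9% higher, 27.7% lower). The siRNAs also differed from each other directly at 7317 genes (46%), among them 1973 of the 4437 called genes (44.5%), so the size of a common change often depended on the siRNA. Another 667 genes were past the threshold with both siRNAs but in opposite directions. Both siRNAs were set against the same 3 control libraries. The plot of one siRNA's change against the other's shows where the called genes lie.

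**Figure D1:**
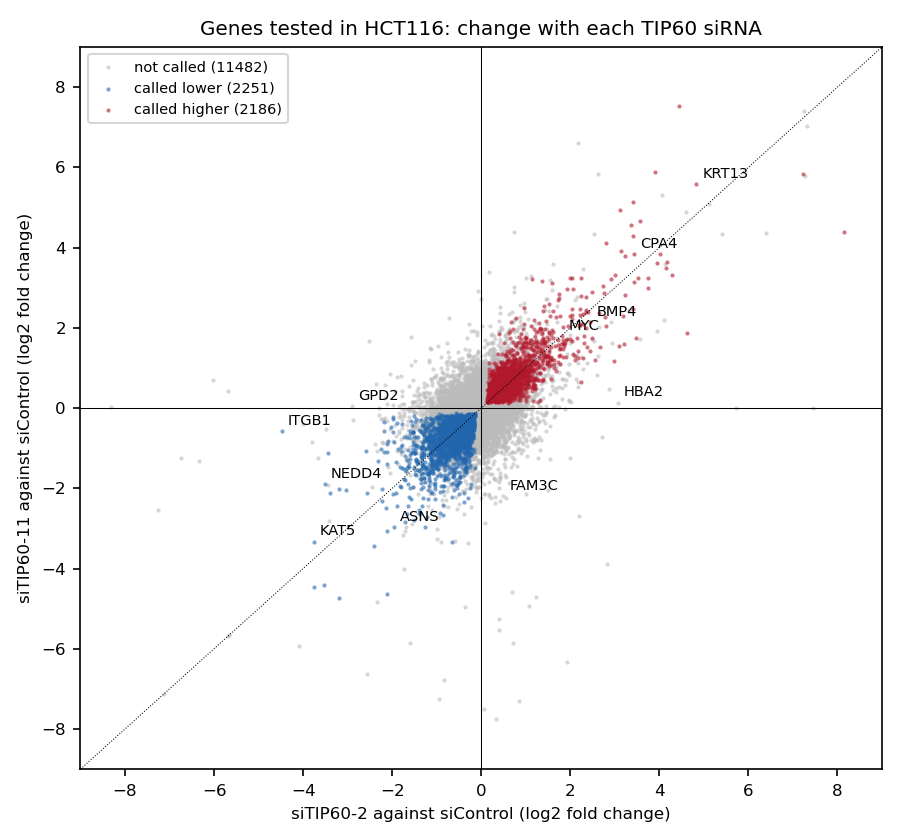
Each point is one of the 15919 genes tested, placed by its log2 fold change over control with siTIP60-2 (x axis) and with siTIP60-11 (y axis), which share the 3 control libraries. The 2186 genes called higher (red) and 2251 called lower (blue) fill the upper right and lower left corners by construction, KAT5 and KRT13 lie at the far ends, and genes such as GPD2, HBA2 and FAM3C lie off the diagonal.

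Among the genes that rose most were keratins and secreted or surface proteins of epithelia. By the smaller of the 2 changes, the 15 protein-coding genes highest in the order, with smaller changes from 1.94 to 4.83, included KRT13, CPA4, MMP7, KRT80, COL17A1, C1orf116, FGFBP1, ITGB8, GALNT5, BMP4, H2BC5, LCN2 and KRTAP2-3. KRT13, a keratin of stratified epithelia that line wet surfaces, had 23.3, 19.97 and 20.1 CPM with siTIP60-2 and 35.4, 37.99 and 33.3 CPM with siTIP60-11, against 0.982, 0.602 and 0.562 CPM in control libraries. It was close to undetected in control libraries and rose by 5.21 ± 0.184 (adjusted p = 2.88e-12). CPA4, a secreted carboxypeptidase, had 216, 186 and 202 CPM in the siTIP60-2 libraries and 266, 265 and 265 CPM in the siTIP60-11 libraries, against 21.6, 17.2 and 16.6 CPM with siControl (3.64 ± 0.0768, adjusted p = 6.30e-16). Its lowest depleted library lay far above its highest control.

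MMP7, the matrix protease matrilysin, had 8.89, 10.3 and 9.23 CPM with siTIP60-2 and 7.15, 9.198 and 7.398 CPM with siTIP60-11, against 0.764, 1.204 and 0.562 CPM in control libraries, with low values in every control (3.38 ± 0.191, adjusted p = 7.44e-10). BMP4, a secreted ligand of the bone morphogenetic protein pathway, had 436, 446 and 447 CPM in the siTIP60-2 libraries and 356, 363 and 360 CPM in the siTIP60-11 libraries, against 83.2, 77.4 and 83.4 CPM with siControl (2.29 ± 0.0468, adjusted p = 6.30e-16). BMP4 was the most abundant of the 15, and its replicates barely differed. FGFBP1, which releases fibroblast growth factors from the matrix, was higher with siTIP60-2 than with siTIP60-11: it had 33.3, 33.05 and 32.5 CPM with siTIP60-2 and 18.1, 19.5 and 16.1 CPM with siTIP60-11, against 2.78, 4.52 and 3.81 CPM in control libraries. ITGB8, an integrin subunit that activates latent TGF-beta, rose by 2.31 ± 0.111, and COL17A1, the transmembrane collagen of hemidesmosomes, by 2.89 ± 0.161. GALNT5, an enzyme that starts O-linked glycans, rose by 2.27 ± 0.0951, and LCN2, the iron-scavenging lipocalin, by 2.15 ± 0.189.

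The 15 that fell most were KAT5, SLC1A4, NIBAN1, JAZF1, CSTA, ASNS, LAT2, NEDD4, NREP, PHGDH, MAP1B, VGF, PCK2, RBCK1 and MAP3K12, with smaller changes from 1.62 to 3.33 in size. SLC1A4, ASNS, PHGDH and PCK2 belong to amino acid supply and are described with their pathway. NEDD4, the founding ubiquitin ligase of its family, had 5.48, 5.197 and 4.89 CPM in the siTIP60-2 libraries and 15.2, 16.2 and 16.4 CPM in the siTIP60-11 libraries, against 61.00, 51.9 and 64.7 CPM with siControl (−2.71 ± 0.0763, adjusted p = 1.48e-11). The libraries of siTIP60-2 were the lowest. NIBAN1, a stress-induced gene, had 12.4, 14.01 and 14.9 CPM with siTIP60-2 and 6.55, 7.75 and 7.19 CPM with siTIP60-11, against 64.4, 47.7 and 66.9 CPM in control libraries (−2.59 ± 0.0924, adjusted p = 5.88e-11). JAZF1, a zinc finger protein found in the TIP60 complex, had 1.59, 0.876 and 1.04 CPM in the siTIP60-2 libraries and 1.803, 2.58 and 2.63 CPM in the siTIP60-11 libraries, against 9.28, 9.18 and 10.4 CPM with siControl (−2.54 ± 0.163, adjusted p = 1.28e-07). RBCK1, a subunit of the linear ubiquitin ligase, had 62.1, 76.9 and 67.6 CPM with siTIP60-2 and 55.2, 60.1 and 56.9 CPM with siTIP60-11, against 201, 244 and 201 CPM in control libraries (−1.77 ± 0.0647, adjusted p = 2.63e-11). VGF, a neuropeptide precursor, fell by 2.15 ± 0.07699 on the log2 scale, the microtubule protein MAP1B by 1.74 ± 0.106, the protease inhibitor CSTA by 2.07 ± 0.161 and the stress kinase MAP3K12 by 1.92 ± 0.102. Each of the 30 calls held in all 16 alternatives tried.

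**Figure D2:**
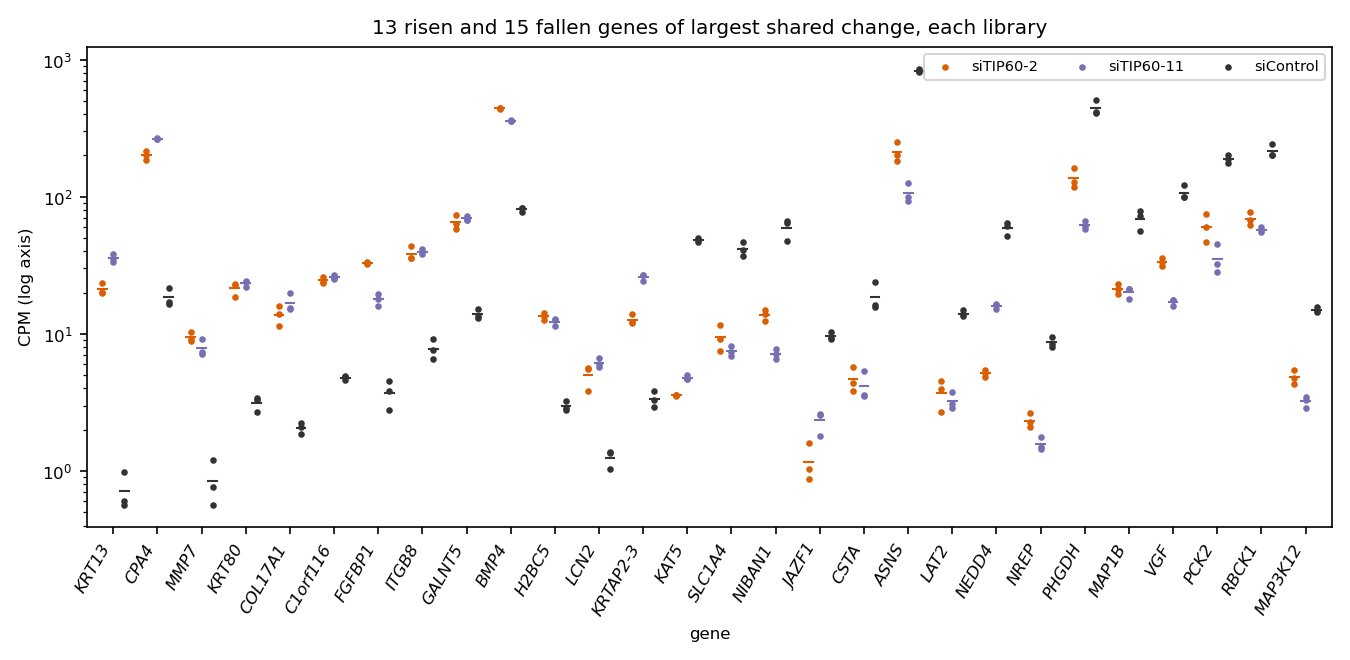
Level in CPM (log axis) of 13 of the 15 genes that rose most and of the 15 that fell most, ranked by the smaller of the 2 changes; dots are libraries of siTIP60-2 (orange), siTIP60-11 (violet) and siControl (black), and short lines are group means. For every gene the 6 depleted dots lie on one side of the 3 control dots, above them from KRT13 to KRTAP2-3 and below them from KAT5 to MAP3K12.

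Genes of amino acid supply and protein folding fell in numbers. The share called lower was 66.7% for serine and one-carbon genes, 58.3% for other amino acid synthesis and 58.8% for transporters. It was 55% for tRNA synthetases, 63.6% for stress regulators and 76.2% for chaperones, beside 14.1% of all genes. When amino acids run short or proteins misfold in the endoplasmic reticulum, phosphorylation of the initiation factor eIF2 slows translation while it favours that of ATF4, a transcription factor that raises genes for amino acid synthesis, uptake and tRNA charging. ATF4 and its dimer partners bind the C/EBP-ATF response element. The ATF6 and XBP1 factors of the unfolded protein response act on the endoplasmic reticulum stress element before chaperone genes. Stretches of promoter that hold these motifs in fallen genes are shown here because the genes moved together. They were read from RefSeq promoters of GRCh38.p14 (250 bases before to 50 after the start), 5′ to 3′ on the strand of the gene, with the motif in capitals. The C/EBP-ATF motif, searched as TGATGNAA on both strands, stood in these windows of AARS1 (chr16:70289671-70289708, minus), ASNS (chr7:97872454-97872491, minus), CHAC1 (chr15:40953247-40953284, plus) and GOT1 (chr10:99430800-99430837, minus), 68 to 209 bases before the start.
AARS1: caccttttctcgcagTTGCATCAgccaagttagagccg
ASNS: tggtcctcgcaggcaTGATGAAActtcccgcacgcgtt
CHAC1: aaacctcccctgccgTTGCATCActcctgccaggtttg
GOT1: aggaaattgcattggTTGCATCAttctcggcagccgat
In AARS1, CHAC1 and GOT1 it reads on the opposite strand. Only matches with flanks wholly before the start are printed. The other matches in fallen genes of amino acid supply and stress regulation lay at 13 to −37 bases before the start. Negative values lie after it. The stress element, searched as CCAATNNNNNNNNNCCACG on both strands, stood before HSPA5 (chr9:125241381-125241419, minus), XBP1 (chr22:28800593-28800631, minus), CANX (chr5:179698768-179698806, plus), CRELD2 (chr22:49918544-49918582, plus) and, at 2 places, HSP90B1, of which the one nearer the start is printed (chr12:103930311-103930349, plus).
HSPA5: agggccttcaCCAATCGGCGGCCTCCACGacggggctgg
XBP1: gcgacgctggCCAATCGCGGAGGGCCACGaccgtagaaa
CANX: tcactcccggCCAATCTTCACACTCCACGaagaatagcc
CRELD2: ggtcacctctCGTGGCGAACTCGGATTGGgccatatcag
HSP90B1: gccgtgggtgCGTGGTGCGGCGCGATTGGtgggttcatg

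The C/EBP-ATF motif was in 12 of the 39 promoters available for fallen genes of the 5 lists of amino acid supply and stress regulators (30.8%), and in 15 of 64 for all their tested members (23.4%). It was in 178 of 10841 promoters of all genes tested (1.64%) and in 1003 of all 27305 promoters of the table (3.67%). Over all called genes it was in 54 of 1773 promoters of those that fell (3.05%) and in 23 of 1695 of those that rose (1.36%). By list it was in 6 of 12 promoters of called tRNA synthetases (6 of 16 tested), 3 of 10 of called transporters, 2 of 5 of called genes of other amino acid synthesis, 2 of 15 of called stress regulators and 0 of 4 of called serine and one-carbon genes. The stress element was in 5 of 15 promoters of called chaperone genes (33.3%) and in 15 of 10841 of genes tested (0.138%). These are matches of letters, and binding was not measured. None of the 4 motifs searched here and below holds another.

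Serine synthesis fell at each enzyme. PHGDH, which takes the glycolytic intermediate into the pathway, had 118, 161 and 129 CPM in the siTIP60-2 libraries and 58.00, 66.1 and 61.6 CPM in the siTIP60-11 libraries, against 415, 510 and 411 CPM with siControl (−2.28 ± 0.08799, adjusted p = 1.30e-08). PSAT1, the aminotransferase that follows, had 212, 272 and 249 CPM with siTIP60-2 and 161, 201 and 178 CPM with siTIP60-11, against 673, 714 and 724 CPM in control libraries (−1.75 ± 0.0736, adjusted p = 1.32e-09). PHGDH and PSAT1 libraries were well below control, lower with siTIP60-11 for both. PSPH, the phosphatase that releases serine, changed by −0.77 ± 0.0522. SHMT2 and MTHFD2, the mitochondrial enzymes that pass the carbon of serine to folate, changed by −0.57 ± 0.0522 and −0.99 ± 0.0428. Of 9 list members 6 fell and 1 rose (median −0.77).

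Asparagine, alanine and aspartate enzymes fell with them. ASNS, asparagine synthetase, had 183, 250 and 203 CPM in the siTIP60-2 libraries and 93.2, 125 and 99.6 CPM in the siTIP60-11 libraries, against 809, 857 and 819 CPM with siControl (−2.46 ± 0.0924, adjusted p = 8.66e-09). It was at 25.6% of control with siTIP60-2 and at 12.8% with siTIP60-11. PCK2, the mitochondrial enzyme that makes phosphoenolpyruvate, had 46.5, 74.5 and 60.7 CPM with siTIP60-2 and 28.2, 45.2 and 32.1 CPM with siTIP60-11, against 177, 203 and 190 CPM in control libraries (−2.04 ± 0.145, adjusted p = 1.48e-05). GPT2 and GOT1, the transaminases of alanine and aspartate, changed by −1.41 ± 0.0574 and −1.07 ± 0.0515. Of 12 tested, 7 fell and 1 rose (median −0.40).

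Of 17 amino acid transporters 10 fell and 2 rose (median −0.46). SLC1A4, a carrier of small neutral amino acids, had 7.54, 11.6 and 9.17 CPM in the siTIP60-2 libraries and 6.85, 8.19 and 7.33 CPM in the siTIP60-11 libraries, against 41.1, 36.8 and 46.8 CPM with siControl (−2.31 ± 0.115, adjusted p = 2.61e-09). SLC7A11, the cystine importer, had 124, 152 and 147 CPM with siTIP60-2 and 55.96, 62.9 and 58.01 CPM with siTIP60-11, against 386, 301 and 415 CPM in control libraries (−2.01 ± 0.0924, adjusted p = 2.56e-07). SLC43A1 changed by −1.41 ± 0.126 and SLC7A1, an importer of cationic amino acids, by −0.86 ± 0.0876. With limma on log2(TPM + 1), 6 transporters fell.

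Cytosolic tRNA synthetases, which load amino acids onto tRNAs, split into 11 that fell and 4 that rose of 20 (median −0.60). CARS1, for cysteine, had 91.1, 107 and 97.9 CPM in the siTIP60-2 libraries and 60.3, 64.1 and 62.02 CPM in the siTIP60-11 libraries, against 246, 256 and 256 CPM with siControl (−1.69 ± 0.0493, adjusted p = 6.46e-12). SARS1, for serine, had 178, 204 and 186 CPM with siTIP60-2 and 193, 215 and 187 CPM with siTIP60-11, against 500, 557 and 491 CPM in control libraries (−1.41 ± 0.0553, adjusted p = 2.63e-11). The alanine, glycine, tyrosine and tryptophan enzymes AARS1, GARS1, YARS1 and WARS1 changed by −1.09 ± 0.0516, −1.04 ± 0.0519, −1.02 ± 0.0436 and −1.29 ± 0.0499. Of the 4 that rose, 2 were called without control replicate 1, without siTIP60-2 replicate 2 or 3, or without siTIP60-11 replicate 1 or 3, whereas 11 or 12 fell in each case.

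Of 22 regulators of this stress response 14 fell and 2 rose (median −0.79, and −0.36 with siTIP60-2 against −1.09 with siTIP60-11). DDIT3, the pro-apoptotic factor CHOP, had 23.3, 29.8 and 26.2 CPM in the siTIP60-2 libraries and 10.3, 11.3 and 10.9 CPM in the siTIP60-11 libraries, against 73.5, 82.05 and 69.4 CPM with siControl (−2.14 ± 0.0788, adjusted p = 4.09e-10). TRIB3, a pseudokinase that restrains ATF4, had 70.5, 106 and 94.2 CPM with siTIP60-2 and 35.04, 46.05 and 36.6 CPM with siTIP60-11, against 230, 252 and 236 CPM in control libraries (−2.01 ± 0.0989, adjusted p = 4.86e-07). CHAC1, which degrades glutathione, was much lower with siTIP60-11: it had 53.9, 70.4 and 64.9 CPM in the siTIP60-2 libraries and 17.1, 21.9 and 17.7 CPM in the siTIP60-11 libraries, against 81.5, 83.1 and 81.6 CPM with siControl (−1.25 ± 0.0768, adjusted p = 0.00239). XPOT, the tRNA exporter, changed by −1.38 ± 0.04601 and CEBPG, a dimer partner of ATF4, by −1.20 ± 0.0456. ATF4 mRNA had 604, 667 and 621 CPM with siTIP60-2 and 465, 490 and 444 CPM with siTIP60-11, against 763, 832 and 749 CPM in control libraries (−0.53 ± 0.0473, adjusted p = 0.000244), a smaller change than in DDIT3 or TRIB3. The related factors ATF3 and ATF5 rose by 0.40 ± 0.0646 and 0.56 ± 0.06295. These 3 were chosen after their values were seen.

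Chaperones and quality control genes of the endoplasmic reticulum fell in 16 of 21 cases, and the other 5 were not called (median −0.50). HSPA5, the main chaperone BiP, had 1126, 1291 and 1272 CPM in the siTIP60-2 libraries and 1141, 1138 and 1125 CPM in the siTIP60-11 libraries, against 1715, 1870 and 1789 CPM with siControl (−0.60 ± 0.0483, adjusted p = 5.16e-07). It was lowered about equally by both siRNAs. XBP1, a transcription factor of the unfolded protein response, had 80.1, 81.5 and 77.4 CPM with siTIP60-2 and 42.5, 44.6 and 37.96 CPM with siTIP60-11, against 100, 114 and 99.2 CPM in control libraries (−0.86 ± 0.0537, adjusted p = 7.04e-05). SEL1L and HERPUD1, of the pathway that degrades misfolded proteins, changed by −0.79 ± 0.0598 and −0.71 ± 0.0468, and the secreted factor MANF and the disulfide isomerase PDIA3 by −0.68 ± 0.07700 and −0.66 ± 0.0434. CANX, CRELD2 and HSP90B1, shown for their promoters after their values were seen, changed by −0.50 ± 0.0474, −0.53 ± 0.0672 and −0.45 ± 0.0604. In cells sequenced in bulk, fewer cells expressing a gene and less RNA per cell cannot be told apart.

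**Figure D3:**
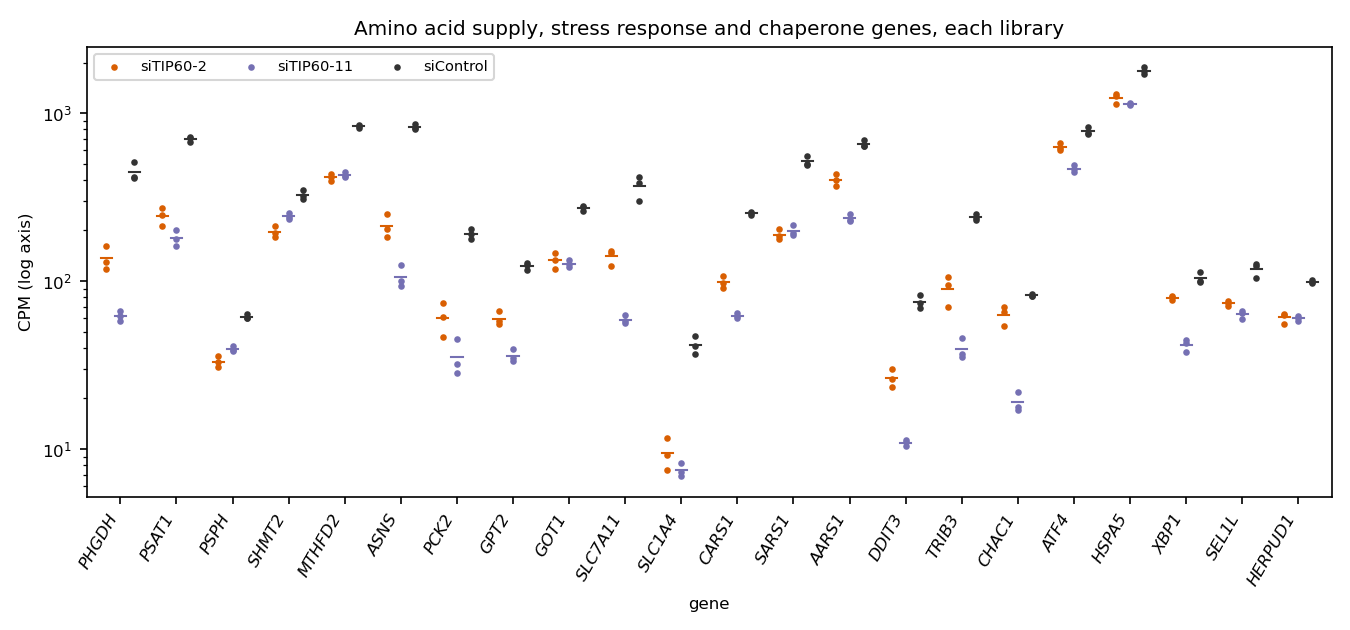
Level in CPM (log axis) of genes of amino acid synthesis (PHGDH to GOT1), transport (SLC7A11, SLC1A4), tRNA charging (CARS1 to AARS1), stress regulation (DDIT3 to ATF4) and the endoplasmic reticulum (HSPA5 to HERPUD1); dots are libraries of siTIP60-2, siTIP60-11 and siControl, short lines group means. The 6 depleted libraries lie below the 3 controls for each gene, and the distance ranges from a small step in ATF4 to several-fold in PHGDH, ASNS and SLC1A4.

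Keratins rose as a group. Of 13 keratin genes tested, 11 rose (84.6%) and 2 were not called (median 1.14), while 13.7% of all genes rose. KRT80, of differentiating epithelia, had 18.7, 22.6 and 23.1 CPM in the siTIP60-2 libraries and 24.04, 24.1 and 22.1 CPM in the siTIP60-11 libraries, against 3.44, 2.71 and 3.31 CPM with siControl (2.81 ± 0.122, adjusted p = 2.35e-11). KRT15, of basal cells, had 113, 108 and 102 CPM with siTIP60-2 and 59.1, 59.5 and 53.6 CPM with siTIP60-11, against 24.1, 29.2 and 22.2 CPM in control libraries (1.65 ± 0.0712, adjusted p = 1.31e-09) and was higher with siTIP60-2. KRT23 changed by 1.14 ± 0.0639 and KRT20, an intestinal keratin at low level here, by 1.63 ± 0.261. The simple keratins of colon epithelium, far more abundant, rose too. KRT8 had 2871, 2921 and 2889 CPM in the siTIP60-2 libraries and 2929, 3038 and 2906 CPM in the siTIP60-11 libraries, against 1390, 1649 and 1440 CPM with siControl (0.97 ± 0.0545, adjusted p = 7.46e-10), and its partners KRT18 and KRT19 rose by 0.64 ± 0.0584 and 0.75 ± 0.0617. KRT6A rose by 3.28 ± 0.648 but was not called with limma on log2(TPM + 1).

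Junction and anchorage genes moved less uniformly. The share called was 40% in the junction list, 41.7% in the hemidesmosome list and 44.4% in the list of epithelial factors. Over all genes it was 27.9%. Of 20 desmosome and junction genes 6 rose and 2 fell (median 0.30). CGN, the tight junction protein cingulin, rose by 1.38 ± 0.0564, CLDN4 by 0.80 ± 0.0545 and TJP1, the scaffold ZO-1, by 0.57 ± 0.0844, whereas CLDN3 fell by 0.76 ± 0.112 on the log2 scale (not called without control replicate 2, which left 1 member lower). Of 12 hemidesmosome and basement membrane genes 3 rose and 2 fell (median −0.01): COL17A1, the laminin chain LAMA3 (1.57 ± 0.102) and the linker PLEC (0.78 ± 0.0679) rose, and the laminin chain LAMB1 changed by −0.82 ± 0.0493. Among epithelial transcription and splicing factors 7 of 18 rose and 1 fell (median 0.34). Without control replicate 2, and with limma on log2(TPM + 1), 5 rose. ELF3, an ETS factor of intestinal epithelium, had 163, 190 and 182 CPM with siTIP60-2 and 139, 155 and 145 CPM with siTIP60-11, against 51.7, 54.6 and 51.3 CPM in control libraries (1.62 ± 0.0604, adjusted p = 9.17e-12). KLF5, a factor of proliferating crypt cells, had 175, 181 and 184 CPM in the siTIP60-2 libraries and 170, 172 and 180 CPM in the siTIP60-11 libraries, against 86.4, 83.6 and 90.6 CPM with siControl (1.02 ± 0.0523, adjusted p = 2.32e-10). The splicing regulator ESRP1 was the 1 that fell, with 93.3, 106 and 96.1 CPM with siTIP60-2 and 90.9, 87.1 and 94.2 CPM with siTIP60-11, against 218, 202 and 223 CPM in control libraries (−1.18 ± 0.0508, adjusted p = 9.29e-11).

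Markers were read beside these lists. Sums over markers are CPM of all counts of a library, without TMM factors. The epithelial markers EPCAM and CDH1 were at 236 ± 9.58 CPM with siTIP60-2 and 232 ± 4.37 CPM with siTIP60-11, against 251 ± 31.5 CPM in control and 66.8 ± 0.893 CPM with siTIP60-2 and 82.2 ± 4.72 CPM with siTIP60-11, against 84.7 ± 5.65 CPM in control, and neither was called. Summed over the 10 colon epithelial markers, the level was 5950 to 6123 CPM with siTIP60-2 and 5921 to 6201 CPM with siTIP60-11, against 3455 to 3981 CPM in control libraries, and the 3 members that rose were the keratins KRT8, KRT18 and KRT19. CEACAM5 and CDX1, of differentiated colon cells, were at 0 counts in all 3 control libraries. The 6 leukocyte markers summed to 1.43 to 1.64 CPM with siTIP60-2 and 1.85 to 2.86 CPM with siTIP60-11, against 0.298 to 0.732 CPM in control libraries. Their rise came through LYZ, lysozyme, and CD3E and PTPRC were at 0 counts in the controls. The 6 fibroblast markers summed to 23.9 to 25.7 CPM with siTIP60-2 and 27.3 to 29 CPM with siTIP60-11, against 19.2 to 22.5 CPM in control libraries, nearly all of it COL1A1. Endothelial and neuroendocrine markers reached at most 2.56 and 1.7 CPM in any library, and no member tested was called. The part of other cells in the results was not tested.

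Matrix enzymes and adhesion receptors went both ways. The share called was 52.6% of proteases and inhibitors and 54.5% of integrins, beside 27.9% of all genes. Of 19 proteases and inhibitors 4 rose and 6 fell (median −0.06). CPA4 and MMP7 rose, while TIMP1, an inhibitor of matrix metalloproteases, had 21.3, 22.9 and 19.6 CPM in the siTIP60-2 libraries and 61.1, 65.1 and 56.2 CPM in the siTIP60-11 libraries, against 118, 149 and 119 CPM with siControl (−1.84 ± 0.0745, adjusted p = 3.08e-08). TIMP2, of the same family, and PLAUR, the urokinase receptor, changed by −0.78 ± 0.0391 and −1.09 ± 0.0636. The AP-1 motif, searched as TGANTCA on both strands, was in 4 of 6 promoters of called members of this list (66.7%), in 4 of 13 of tested members (30.8%) and in 4.61% of the promoters of genes tested. It was in 1 of 4 promoters of called hemidesmosome genes and in 0 of 3 of called keratins. Of 11 integrins 5 fell and 1, ITGB8, rose (median −0.41). With 1 library left out 4 fell in 8 of 9 cases, and with limma on log2(TPM + 1) 3 fell. ITGA3 and ITGA5, the laminin and fibronectin receptor chains, changed by −0.80 ± 0.0392 and −0.55 ± 0.0509. LOXL2, a matrix crosslinking enzyme, and VIM, vimentin, both of the mesenchymal list, changed by −1.74 ± 0.0594 and −1.64 ± 0.162. In that list of 13, 3 fell and 1, FN1, rose, which was not called without control replicate 1 or with limma on log2(TPM + 1). Its share called was 30.8%, beside 27.9% of all genes.

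ITGB1, the common beta chain, was, of the genes with a mean count of at least 50, the one most lowered by siTIP60-2 relative to siTIP60-11. It had 47.3, 50.6 and 47.2 CPM with siTIP60-2 and 715, 722 and 730 CPM with siTIP60-11, against 1094, 1024 and 1129 CPM in control libraries. With siTIP60-2 it was at 4.47% of control and with siTIP60-11 at 66.7%, a log2 difference of −3.90 ± 0.0586 (adjusted p = 5.41e-19). Lower with siTIP60-2 were also GPD2, the mitochondrial glycerol phosphate dehydrogenase (18.8 ± 1.24 CPM with siTIP60-2, 145 ± 9.75 with siTIP60-11, 140 ± 18.1 in control), and the pseudogene AC022149.1. Higher with siTIP60-2 than with siTIP60-11 were FAM3C, a secreted factor (1217 ± 17.2 CPM with siTIP60-2, 189 ± 8.77 with siTIP60-11, 863 ± 19.6 in control), HBA2, an alpha globin (11.4 ± 0.459 CPM with siTIP60-2, 1.501 ± 0.721 with siTIP60-11, 1.36 ± 0.27 in control), and CTAGE4, which has close copies in the genome. ITGB1 was called as fallen, GPD2, FAM3C, HBA2 and CTAGE4 were not.

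Of 24 AP-1 and ERK feedback genes 10 fell, 3 rose and 11 were not called (median −0.22, 0.06 with siTIP60-2 and −0.42 with siTIP60-11). Their share called was 54.2%, beside 27.9% of all genes. SPRY4, an inhibitor of receptor signalling that the pathway itself raises, had 87.8, 95.1 and 95.2 CPM in the siTIP60-2 libraries and 71.04, 72.95 and 71.1 CPM in the siTIP60-11 libraries, against 197, 178 and 199 CPM with siControl (−1.23 ± 0.0454, adjusted p = 4.87e-11). DUSP6, the ERK phosphatase, had 168, 195 and 177 CPM with siTIP60-2 and 79.2, 79.4 and 74.7 CPM with siTIP60-11, against 267, 258 and 280 CPM in control libraries (−1.18 ± 0.0498, adjusted p = 3.48e-07). The ETS factors ETV4 and ETV5 changed by −0.98 ± 0.0542 and −1.17 ± 0.0589, and IER3 by −1.17 ± 0.0876. JUN, an AP-1 subunit, rose, with 42.2 ± 1.07 CPM with siTIP60-2 and 62.97 ± 1.55 CPM with siTIP60-11, against 27.5 ± 1.901 CPM in control (0.90 ± 0.05795). Of the 10 EGF receptor family genes and ligands, EREG, epiregulin, rose by 0.77 ± 0.0722 and held in all alternatives, while ERBB2 and TGFA, the 2 others called, did not. The share called in that list was 30%, beside 27.9% of all genes.

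Other pathway lists moved both ways. The share called was 50% of BMP and TGF-beta genes and 43.8% of YAP and TEAD targets, beside 27.9% of all genes. Of 18 BMP and TGF-beta genes 6 rose and 3 fell (median 0.24): besides BMP4, the inhibitors SMAD7 (1.33 ± 0.0969) and BAMBI (1.25 ± 0.0961) rose, and the ligand TGFB1 changed by −0.99 ± 0.0506. TGFBI, a secreted target of TGF-beta, was barely detected in control libraries and had 1.35, 1.401 and 1.47 CPM in the siTIP60-2 libraries and 1.14, 1.26 and 0.968 CPM in the siTIP60-11 libraries, against 0.0546, 0.151 and 0.0624 CPM with siControl. Of 16 YAP and TEAD targets 4 rose and 3 fell (median 0.23), with AMOTL2 at 1.31 ± 0.0702 and NT5E, the ectonucleotidase CD73, at −1.40 ± 0.0498. Of 14 WNT targets 3 rose and 1 fell (median 0.15, 0.40 with siTIP60-2 and −0.23 with siTIP60-11). Their share called was 28.6%, beside 27.9% of all genes. The WNT effector TCF7L2 rose by 0.72 ± 0.0673 and the inhibitor DKK1 by 0.56 ± 0.0428, while NOTUM, a secreted WNT inhibitor, changed by −0.85 ± 0.0603.

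**Figure D4:**
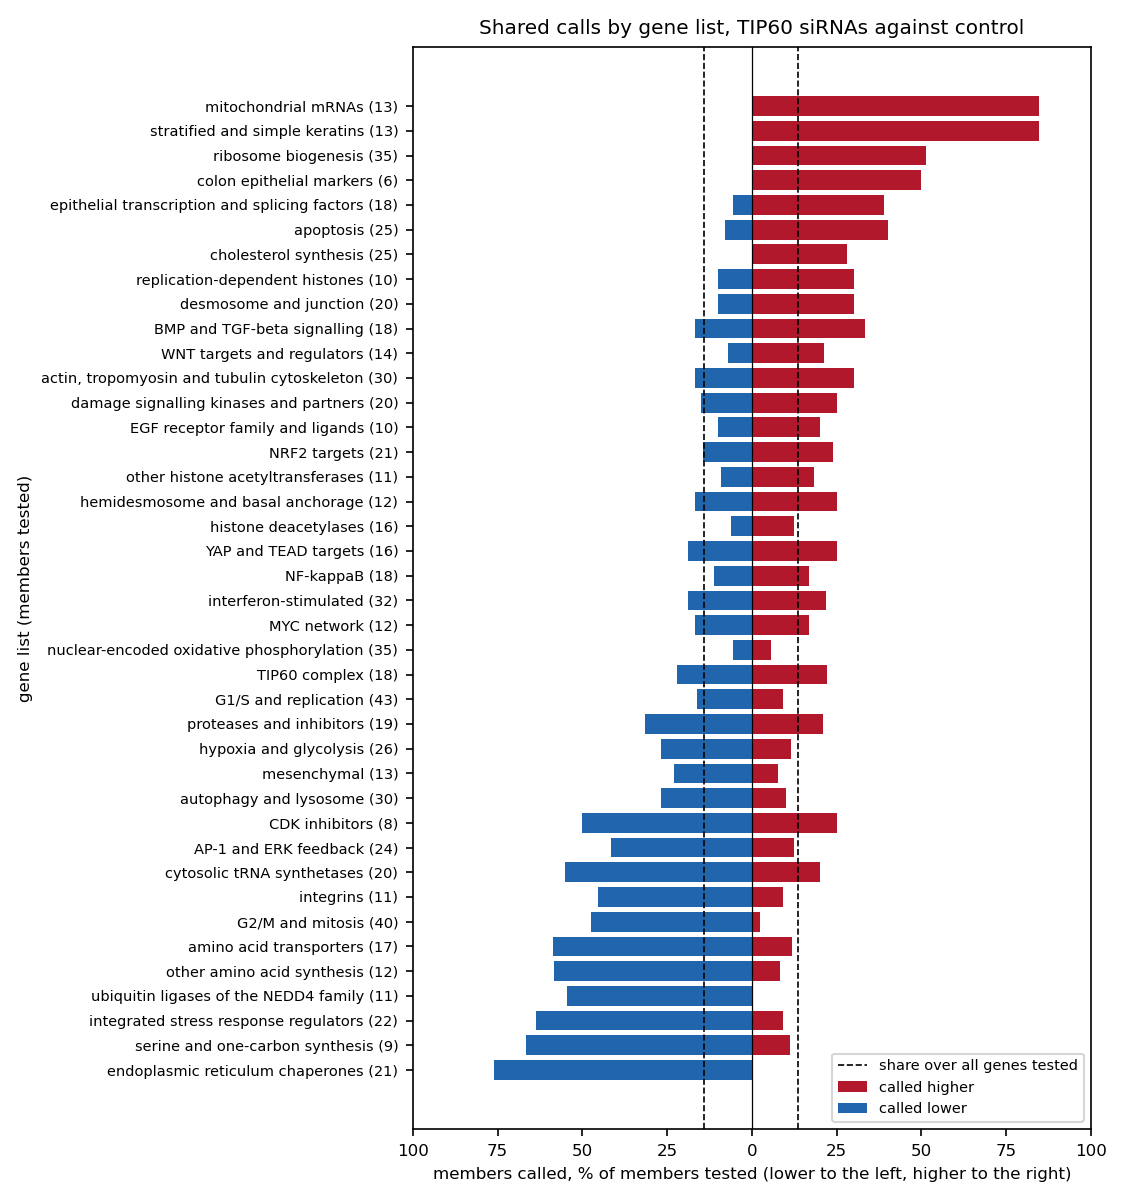
For each gene list with at least 6 members tested (number in brackets), the share of tested members called higher (red, to the right) and called lower (blue, to the left), in percent. Dashed lines mark the shares over all 15919 genes, 13.7% higher and 14.1% lower; keratins and mitochondrial mRNAs have the longest red bars and endoplasmic reticulum chaperones the longest blue bar.

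MYC rose, and so did many of the ribosome biogenesis genes. MYC had 1346, 1332 and 1351 CPM with siTIP60-2 and 1311, 1346 and 1306 CPM with siTIP60-11, against 362, 397 and 390 CPM in control libraries (1.80 ± 0.0568, adjusted p = 2.64e-13). It was at 351% of control with siTIP60-2 and 345% with siTIP60-11, and the difference between the siRNAs was 0.02 ± 0.0597 on the log2 scale (adjusted p = 0.777). MXD3, of the network that opposes MYC, changed by −1.16 ± 0.128. Of 12 network genes 2 rose and 2 fell, a share called of 33.3% beside 27.9% of all genes. Of 35 genes that build ribosomes, many of them known MYC targets, 18 rose and 17 were not called (median 0.33). The share called in this list was 51.4%. UTP20, of the small subunit processome, had 96.6, 85.9 and 92.03 CPM in the siTIP60-2 libraries and 86.4, 77.5 and 81.9 CPM in the siTIP60-11 libraries, against 38.1, 31.5 and 43.1 CPM with siControl (1.20 ± 0.0742, adjusted p = 5.45e-09). NOLC1, a nucleolar phosphoprotein, had 642, 609 and 630 CPM with siTIP60-2 and 745, 720 and 719 CPM with siTIP60-11, against 388, 366 and 403 CPM in control libraries (0.81 ± 0.0442, adjusted p = 3.01e-09). RRP1B, HEATR1, NOP56 and POLR1A, the large subunit of RNA polymerase I, rose by 0.73 ± 0.0486, 0.68 ± 0.0593, 0.64 ± 0.0398 and 0.63 ± 0.0634. The E-box CACGTG, which MYC binds and which reads the same on both strands, was in 6 of 16 promoters of called members (37.5%) and 11 of 29 of tested members (37.9%), with 10.1% of promoters of genes tested.

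Of 40 G2/M genes 19 fell, 1 rose and 20 were not called (median −0.28), a share called of 50% beside 27.9% of all genes. The count of fallen genes was 26 without control replicate 2, 16 without control replicate 3 and 13 with limma on log2(TPM + 1). NEK2, a centrosomal kinase, had 33.3, 33.9 and 33.02 CPM in the siTIP60-2 libraries and 32.6, 30.5 and 30.1 CPM in the siTIP60-11 libraries, against 65.5, 63.5 and 66.4 CPM with siControl (−1.02 ± 0.0539, adjusted p = 1.31e-09). NDC80 and NUF2, partners in the kinetochore, changed by −0.98 ± 0.0474 and −0.85 ± 0.0573, the phosphatase CDC25C by −0.87 ± 0.0877, and securin PTTG1 and the centromeric histone CENPA by −0.71 ± 0.0896 and −0.64 ± 0.0764. Of 43 G1/S and replication genes 4 rose and 7 fell (median −0.01), a share called of 25.6% beside 27.9% of all genes. That count of fallen genes was 3 without siTIP60-2 replicate 1, 4 without control replicate 3, 4 without siTIP60-11 replicate 2 and 2 with limma on log2(TPM + 1). E2F1 rose by 0.72 ± 0.0799.

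The CDK inhibitors split by member, with 75% of them called beside 27.9% of all genes. CDKN1A, p21, had 742, 815 and 795 CPM with siTIP60-2 and 588, 615 and 602 CPM with siTIP60-11, against 242, 290 and 246 CPM in control libraries (1.41 ± 0.0647, adjusted p = 2.32e-10). CDKN2B, p15, had 28.7, 27.04 and 27.2 CPM in the siTIP60-2 libraries and 26.8, 28.9 and 29.8 CPM in the siTIP60-11 libraries, against 10.97, 11.5 and 10.4 CPM with siControl (1.36 ± 0.0746, adjusted p = 5.30e-10). CDKN2C, CDKN2D and CDKN3 changed by −0.81 ± 0.119, −0.96 ± 0.107 and −0.63 ± 0.0755, so that of 8 tested 2 rose and 4 fell. Apoptosis genes, of which 48% were called beside 27.9% of all genes, rose in 10 of 25 cases and fell in 2 (median 0.15). Among them the pro-apoptotic BIK, BBC3 and BAX and the death receptor FAS rose by 1.05 ± 0.0794, 0.77 ± 0.07398, 0.72 ± 0.07003 and 0.71 ± 0.06598, and the inhibitor BIRC3 by 1.95 ± 0.0961. Without control replicate 2, 4 members fell.

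Transcripts of the mitochondrial genome rose in 11 of 13 cases, and the other 2 were not called (median 0.83). That is a share called of 84.6%, beside 27.9% of all genes. With 1 library left out 9 or 10 rose, and without control replicate 2 it was 9. MT-ND4, a subunit of respiratory complex I, had 4307, 3590 and 4128 CPM with siTIP60-2 and 3708, 4039 and 4063 CPM with siTIP60-11, against 2265, 2162 and 2208 CPM in control libraries (0.84 ± 0.119, adjusted p = 0.000236). The mitochondrial genome held 2.35 ± 0.195% of the counts with siTIP60-2 and 2.94 ± 0.185% with siTIP60-11, against 1.61 ± 0.0516% in control libraries (SD, n = 3 each). Of 35 nuclear genes of oxidative phosphorylation 2 rose and 2 fell (median −0.11), a share called of 11.4% beside 27.9% of all genes. Without control replicate 2, 4 rose and 1 fell, and without control replicate 3, 5 fell. Cholesterol synthesis genes rose in 7 of 25 cases, and 18 were not called (median 0.32, 0.47 with siTIP60-2 and 0.04 with siTIP60-11). The share called in this list, 28%, lies at the 27.9% of all genes, with 13.7% of all genes higher. DHCR7, the reductase of the last step, had 183, 177 and 194 CPM in the siTIP60-2 libraries and 131, 144 and 142 CPM in the siTIP60-11 libraries, against 88.3, 88.4 and 98.1 CPM with siControl (0.81 ± 0.0742, adjusted p = 2.05e-05), and NSDHL, which acts on the methyl groups of the sterol, rose by 0.67 ± 0.0647. With limma on log2(TPM + 1), 3 rose.

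Of the hypoxia and glycolysis list 7 of 26 fell and 3 rose (median −0.09), a share called of 38.5% beside 27.9% of all genes. VEGFA, the angiogenic factor, had 35.1, 38.01 and 36.5 CPM with siTIP60-2 and 32.8, 33.3 and 33.4 CPM with siTIP60-11, against 95.8, 84.3 and 89.9 CPM in control libraries (−1.37 ± 0.0546, adjusted p = 3.33e-11). HK1, a hexokinase, changed by −0.96 ± 0.0446, while SLC2A1, the glucose importer GLUT1, rose by 0.90 ± 0.0446. Cytoskeleton genes rose in 9 of 30 cases and fell in 5 (median 0.07), with ACTB at 0.62 ± 0.0474, the tropomyosin TPM1 at −1.63 ± 0.0651 and the tubulin TUBA1A at −0.96 ± 0.0681. Of that cytoskeleton list 46.7% was called, beside 27.9% of all genes. Without siTIP60-11 replicate 2 or without its replicate 3, 3 fell. Of 32 interferon-stimulated genes 7 rose and 6 fell (median 0.01), a share called of 40.6% beside 27.9% of all genes. Without control replicate 3, 4 rose. ISG20, an exonuclease that interferon raises, had 1.71, 2.102 and 1.83 CPM in the siTIP60-2 libraries and 1.62, 1.39 and 1.52 CPM in the siTIP60-11 libraries, against 4.04, 5.495 and 5.12 CPM with siControl (−1.52 ± 0.139, adjusted p = 2.67e-06), and OASL changed by 1.36 ± 0.134. NF-kappaB genes rose in 3 of 18 cases and fell in 2, a share called of 27.8% that lies at the 27.9% of all genes. For the NEDD4 family list the share called was 54.5%. Ubiquitin ligases of the NEDD4 family and their adaptors fell in 6 of 11 cases, and 5 were not called (median −0.26): after NEDD4 came SMURF2, a ligase for SMAD proteins, with 200, 197 and 190 CPM with siTIP60-2 and 195, 185 and 187 CPM with siTIP60-11, against 392, 328 and 405 CPM in control libraries (−0.96 ± 0.0546, adjusted p = 2.61e-09), and NDFIP2 at −0.60 ± 0.0479.

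Within the TIP60 complex, 4 of the 18 subunits listed rose and 4 fell, KAT5 included (median 0.05). The share called was 44.4%, beside 27.9% of all genes. JAZF1, which also fell, was not in that list. EPC1 and EPC2, the paralogous scaffolds that hold the catalytic module, rose: EPC1 had 39.98, 37.4 and 41.3 CPM in the siTIP60-2 libraries and 40.1, 43.5 and 43.9 CPM in the siTIP60-11 libraries, against 22.5, 17.8 and 24.6 CPM with siControl (0.92 ± 0.0779, adjusted p = 3.26e-07), and EPC2 changed by 0.60 ± 0.06497. MEAF6, a small subunit shared with other acetyltransferase complexes, and the reader YEATS4 changed by −0.85 ± 0.06004 and −0.58 ± 0.0833. TRRAP was at 0.44 ± 0.0996 (adjusted p = 0.0292) and was lost without control replicate 1, without siTIP60-11 replicate 1 or 3, with the 9 TIP60 and control libraries alone and with limma on log2(TPM + 1) (adjusted p up to 0.11 over the alternatives). Of 10 replication-dependent histone genes 3 rose and 1 fell (median 0.87, 40% called), with H2BC5 at 2.12 ± 0.106 and H2AC6 at 1.69 ± 0.109. Histone genes share sequence with close copies, so their values are less certain.

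By position, called genes were spread over the nuclear genome. The share called ran from 24.3% on chromosome X to 33.7% on chromosome 20, and the share higher from 9.58% to 18.9% on the same chromosomes. On the mitochondrial genome 12 of 15 genes tested rose (80%) and the other 3 were not called. Protein-coding genes were called in 31.9% of cases, long noncoding RNA genes in 9.98% and pseudogenes in 7.33%. In 4 equal bins of mean level the share called was 9.45%, 26.3%, 36.9% and 38.8% from low to high, so counts of calls follow expression level. Of the long noncoding RNAs, H19, an imprinted transcript, had 15.4, 13.6 and 12.7 CPM with siTIP60-2 and 11.00, 11.1 and 10.5 CPM with siTIP60-11, against 3.38, 3.92 and 2.93 CPM in control libraries (1.85 ± 0.1304, adjusted p = 4.19e-08), and CRNDE changed by −1.30 ± 0.176.

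**Figure D5:**
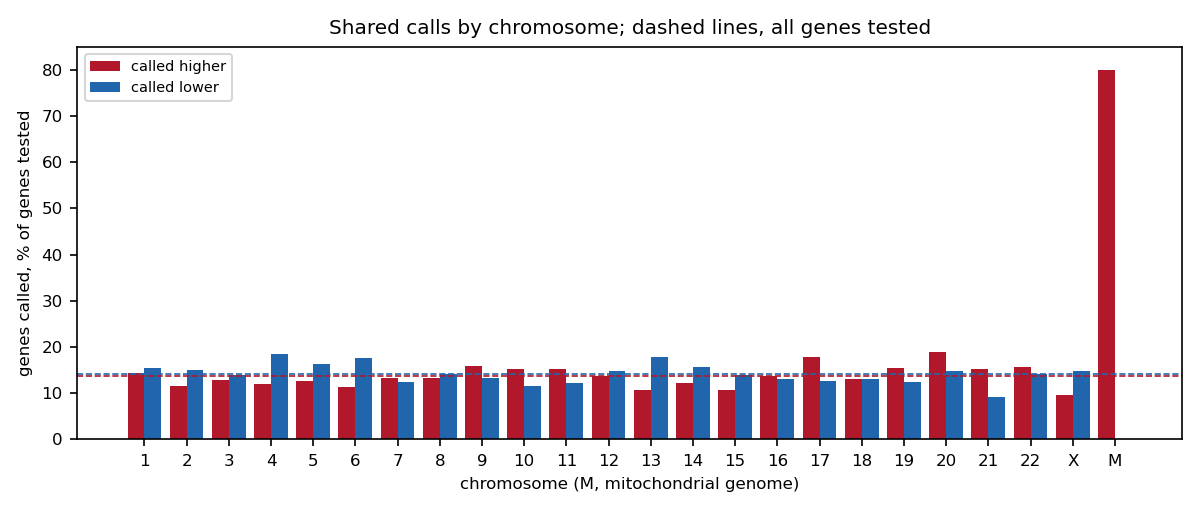
Share of the genes tested on each chromosome that were called higher (red) or lower (blue), in percent, with dashed lines at 13.7% and 14.1% for all genes; M is the mitochondrial genome. The nuclear chromosomes stay between 9.2% and 18.9% in each direction, and the mitochondrial genome stands at 80% higher.

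BRD8 is a subunit of the same complex, and its depletion in HCT116 was compared directly with that of TIP60, over 6 libraries each and without use of the controls. The targets differed at 9834 of 15919 genes (61.8%), 5053 higher with TIP60 siRNAs (31.7%) and 4781 lower (30%). Of the 43 G1/S and replication genes 39 were higher with TIP60 than with BRD8 siRNAs (median difference 0.81), and 2 were lower. Against control their median was −0.01 with TIP60 and −0.81 with BRD8 siRNAs. Of the 40 G2/M genes 36 were higher and 1 lower (median difference 0.61; −0.28 with TIP60 and −0.89 with BRD8 siRNAs against control). The tRNA synthetases were lower with TIP60 siRNAs in 15 of 20 cases, chaperones in 14 of 21, other amino acid synthesis genes in 7 of 12 and cytoskeleton genes in 22 of 30. BRD8 siRNAs also lowered the first 3 of these lists against control. The medians were −0.60 with TIP60 and −0.23 with BRD8 siRNAs for tRNA synthetases, −0.50 and −0.27 for chaperones. For other amino acid synthesis they were −0.40 and −0.29. Against control the cytoskeleton median was 0.07 with TIP60 and 0.46 with BRD8 siRNAs. Mitochondrial mRNAs were higher with TIP60 siRNAs in 11 of 13 cases and BMP and TGF-beta genes in 12 of 18. The mitochondrial median against control was positive with both targets, 0.83 with TIP60 and 0.46 with BRD8 siRNAs. Against control the median of the BMP and TGF-beta genes was 0.24 with TIP60 and −0.31 with BRD8 siRNAs. Amino acid transporters were higher with TIP60 than with BRD8 siRNAs in 10 of 17 cases and lower in 2 (median difference 0.34; −0.46 with TIP60 and −0.72 with BRD8 siRNAs against control). Of 22 stress response regulators 12 were higher and 9 lower (median difference 0.18; −0.79 with TIP60 and −1.03 with BRD8 siRNAs against control). Serine and one-carbon genes did not lean to one target: 3 of 9 were higher, 3 lower (median difference 0.01). Their medians against control were −0.77 with TIP60 and −0.67 with BRD8 siRNAs. Keratins were higher with TIP60 siRNAs in 8 of 13 cases and lower in 2, with medians of 1.14 and 0.45 against control. Ribosome biogenesis genes were higher in 15 of 35 cases and lower in 8, with medians of 0.33 and 0.23. Of the 15 genes that rose most with TIP60 siRNAs, 13 were higher than with BRD8 siRNAs and 1 lower, and of the 15 that fell most 10 were lower and 1 higher. Those 30 were chosen for their TIP60 change, which favours such a count.

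The same siRNAs were used in SW480, and the change in HCT116 was compared with that in SW480 through an interaction term. Of 17411 genes tested in both lines, 5425 (31.2%) differed, 2282 with a more positive change in HCT116 (13.1%) and 3143 with a more negative one (18.1%). Of the 30 genes with the largest common changes in HCT116, 26 differed between the lines.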

How the data were processed

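Directional RNA-seq libraries took 100 ng of HCT116 total RNA and gave single reads of 60 bases, per the labels' protocols. The submitters' processing notes name RSEM 1.3.3, STAR 2.7.3a, Trimmomatic 0.33 and hg38; annotation release and strand setting: not given in the sources used here. For each gene the authors deposited an expected count, which divides reads that match several genes and so need not be whole, and, per the file headers, a TPM value. Of 60617 genes listed, 58444 were found in GENCODE 29, used for coordinates and types, and 34 symbols belonged to several identifiers.

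Expected counts were rounded, and all 15 HCT116 libraries were fitted with edgeR 4.0.16 (quasi-likelihood, robust, TMM, expression filter) in R 4.3.3. SE is the size of the change over the square root of F. The line comparison used all 30 libraries. As alternatives, DESeq2 1.42.0, its size factors within edgeR, all genes unfiltered, a filter of CPM 1 in 3 libraries, the 9 libraries alone, a replicate block, limma 3.58.1 on log2(TPM + 1), and leaving out each library were tried. On simulated counts the test recovered 89% of 100 genes changed 2-fold and 76% of 100 changed 1.5-fold. There both siRNAs were given the same change, in genes of mean CPM over 1. In the data the siRNAs differed at 46% of genes, so recovery may be lower. Named genes were KAT5, the 15 that rose and 15 that fell most by the smaller change (mean count at least 50), up to 6 called members per list, 3 genes each way for the siRNA difference and 3 long noncoding RNAs each way; some of these genes are not reported here. Members and the 44 lists were chosen with earlier results of these data known. Promoters came from RefSeq.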

Additional observations from a re-analysis of the deposited data

Results flagged for a closer look

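The effect of the TIP60 siRNAs was compared between HCT116 and SW480 by an interaction test over the 30 libraries, for the 15 genes that rose most and the 15 that fell most in HCT116. Across all genes 5425 of 17411 (31.2%) differed between the lines. Of these 30 genes 26 differed, 22 of them with the same sign and a larger size in HCT116 and 4 with opposite signs. Among those 4, FGFBP1 (−0.0428) and MAP1B (0.0801) barely moved in SW480. The SW480 libraries were shallower, down to 7.07 M counts, where the 9 HCT116 libraries held at least 13.42 M. The 30 were chosen for their size in HCT116, which favours a larger effect there. The values below are HCT116 minus SW480 differences of log2 fold changes.

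Among genes that rose, KRT13 differed by 4.90 (5.20 in HCT116, 0.30 in SW480, adjusted p = 1.32e-18). KRT80 differed by 3.15, LCN2 by 2.85 and FGFBP1 by 2.77, each with a negative sign in SW480 (−0.35, −0.71 and −0.04). C1orf116 differed by 1.83, GALNT5 by 1.94 and BMP4 by 1.41. The differences of H2BC5 and KRTAP2-3 were smaller, at 0.756 and 0.609. CPA4, MMP7, COL17A1 and ITGB8 did not pass the threshold.

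Among genes that fell, those of amino acid supply differed by −2.03 (ASNS, −2.47 in HCT116 and −0.44 in SW480, adjusted p = 5.58e-15), −1.93 (PHGDH), −1.87 (SLC1A4) and −1.84 (PCK2). NIBAN1 differed by −1.81, NREP by −1.67, NEDD4 by −1.49, VGF by −1.41, RBCK1 by −1.36 and CSTA by −1.26. JAZF1 and LAT2 both differed by −1.09 and MAP3K12 by −1.07. MAP1B differed by −1.83, with 0.08 in SW480. KAT5 itself differed by −0.328 (−3.55 in HCT116, −3.23 in SW480, adjusted p = 0.049), so the depletion was slightly deeper in HCT116.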

How the results depend on the processing

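Shared calls numbered 4149 with DESeq2, 4449 with its size factors in edgeR, 4313 with no filter, 4465 with the stricter filter and 4157 with the 9 libraries alone, against 4437. With limma on log2(TPM + 1) there were 2764 (1317 higher, 1447 lower, 187 of at least 2-fold), of which 2618 were among the 4437. The cause was not tested. Leaving out 1 library gave 3897 (without control replicate 1) to 4604 (without control replicate 2) calls, 1964 to 2271 higher, 1933 to 2333 lower and 419 to 464 of at least 2-fold. KAT5 stayed between −3.57 and −3.51, the siRNA difference at 6373 to 6613 genes, the BRD8 difference at 9424 to 9614 and the line difference at 4682 to 5911. Of 235 called genes that were named or in a list's leading members, 184 were called in every alternative and none changed sign, and 46 of the losses came with limma on TPM. The difference of COL17A1 between lines, not called, ran from −1.92 (without SW480 control replicate 3) to 1.21 over the libraries left out. Replicates of equal number correlated at −0.00562 to 0.12 over 9 pairs, with 1 over 0.1. Still, 8 of 9 libraries correlated best with their own number, so a weak link between libraries of equal number is possible. The main fit did not use the numbers. A replicate block gave 4669 calls, of which 4401 were among the 4437 in the same direction. Genes of low counts are limited by depth: of the 3980 genes of lowest mean level 9.45% were called.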

Other observations

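Of 11 other histone acetyltransferases 2 rose and 1 fell, a share called of 27.3% beside 27.9% of all genes, and without control replicate 3, 5 rose. KAT2A and KAT2B, the paralogous acetyltransferases GCN5 and PCAF, moved in opposite directions: KAT2A had 52.99, 49.2 and 48.9 CPM in the siTIP60-2 libraries and 52.9, 53.5 and 50.9 CPM in the siTIP60-11 libraries, against 31.3, 30.7 and 34.1 CPM with siControl (0.68 ± 0.0594, adjusted p = 3.97e-07), and KAT2B had 4.12, 4.09 and 4.22 CPM with siTIP60-2 and 3.73, 3.15 and 3.04 CPM with siTIP60-11, against 9.603, 7.45 and 8.24 CPM in control libraries (−1.19 ± 0.119, adjusted p = 1.13e-05). Of 16 histone deacetylases 2 rose and 1 fell (18.8% called), all 3 lost with limma on log2(TPM + 1). Of 20 damage signalling genes 5 rose and 3 fell (40% called, beside 27.9% of all genes). These 8 calls were lost with limma on log2(TPM + 1).

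Of 30 autophagy and lysosome genes 8 fell and 3 rose (median 0.07), a share called of 36.7% beside 27.9% of all genes. MAP1LC3B, the autophagosome protein LC3B, had 54.6, 62.7 and 63.8 CPM in the siTIP60-2 libraries and 116, 112 and 116 CPM in the siTIP60-11 libraries, against 169, 175 and 177 CPM with siControl (−1.06 ± 0.0459, adjusted p = 7.54e-08), lower with siTIP60-2. TFE3, a transcription factor of lysosomal genes, changed by −0.75 ± 0.0782 and the protease CTSB by −0.65 ± 0.0423, while ATP6V0D1, a subunit of the proton pump, rose by 0.73 ± 0.0647. Of 21 NRF2 targets 5 rose and 3 fell (median 0.08, 0.32 with siTIP60-2 and −0.10 with siTIP60-11). Their share called was 38.1%, beside 27.9% of all genes. ABCC2, an export pump, rose by 1.17 ± 0.0809 and HMOX1, heme oxygenase, by 0.65 ± 0.0551, whereas SLC7A11, which is also in the transporter list, fell. Without control replicate 1, 3 NRF2 targets rose.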
